A study of Mus musculus with 10 samples.

Results

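The Kupffer cell and macrophage markers described here are 10 genes of the mouse liver, of 24421 gene symbols listed with counts. They were taken by symbol: Clec4f, Cd5l, Marco, Vsig4, Csf1r, Timd4, C1qa, C1qb, C1qc and Cd68. Hepatic mRNA was sequenced from 10 male wild-type C57BL/6 mice, 21 weeks old, that were fed ad libitum. The Chow group (n = 5) ate standard chow, and the TM5614 group (n = 5) received the same chow for 10 days with TM5614 mixed in at 20 mg/kg/day. This small molecule is taken by mouth and inhibits PAI-1, the serpin that blocks plasminogen activators. Each mouse gave 1 library of poly(A) RNA from unsorted liver tissue, so the macrophage transcripts were read among those of hepatocytes and all other liver cells. The question was whether the marker transcripts of resident macrophages differed between livers with and without the inhibitor.

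Kupffer cells are the resident macrophages of the liver and sit inside the sinusoids, where they clear bacteria, aged red cells, dying cells and modified lipoproteins from portal blood. They depend on CSF1 signalling through the receptor encoded by Csf1r, and on contact with endothelial, stellate and parenchymal cells for their identity. They are also a main source of C1q, the recognition protein of the classical complement pathway. In a library of unsorted liver, fewer cells of a type and less RNA per cell cannot be told apart.

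The promoters of 4 markers are shown here. They are C1qb and C1qc, which encode chains of the same protein, Vsig4, whose pattern over the livers was least like that of the other members, and Clec4f, the most Kupffer-restricted gene of the set. Each is the 250 bases before the RefSeq start on GRCm38.p6, 5′ to 3′ on the strand of the gene, and all 4 genes lie on the minus strand. The windows are chr4:136886201-136886450 for C1qb, chr4:136892915-136893164 for C1qc, chrX:96293439-96293688 for Vsig4 and chr6:83656117-83656366 for Clec4f. Capitals mark the letters GAGGAA, a core recognised by the myeloid factor PU.1, on either strand, so that TTCCTC is the same core read from the opposite strand.
C1qb: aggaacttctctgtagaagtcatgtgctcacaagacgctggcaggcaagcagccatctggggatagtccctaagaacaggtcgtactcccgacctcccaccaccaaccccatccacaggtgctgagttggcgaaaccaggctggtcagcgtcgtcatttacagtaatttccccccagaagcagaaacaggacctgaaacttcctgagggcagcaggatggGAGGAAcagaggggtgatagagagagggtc
C1qc: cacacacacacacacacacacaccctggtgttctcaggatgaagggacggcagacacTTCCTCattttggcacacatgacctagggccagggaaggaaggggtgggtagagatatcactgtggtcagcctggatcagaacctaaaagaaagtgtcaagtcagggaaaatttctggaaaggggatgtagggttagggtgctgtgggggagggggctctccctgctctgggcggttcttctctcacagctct
Vsig4: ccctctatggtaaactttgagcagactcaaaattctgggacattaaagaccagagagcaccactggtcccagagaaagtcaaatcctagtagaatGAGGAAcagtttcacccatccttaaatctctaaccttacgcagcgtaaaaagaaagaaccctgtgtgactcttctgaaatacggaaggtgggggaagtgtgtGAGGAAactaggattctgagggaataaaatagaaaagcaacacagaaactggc
Clec4f: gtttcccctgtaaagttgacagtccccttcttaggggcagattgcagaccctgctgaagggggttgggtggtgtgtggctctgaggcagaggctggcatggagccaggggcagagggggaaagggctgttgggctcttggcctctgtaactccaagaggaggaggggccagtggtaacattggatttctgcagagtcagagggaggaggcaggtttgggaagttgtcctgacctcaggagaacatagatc
The core stood 30 bases before the start in C1qb on the strand of the gene and 193 bases before it in C1qc on the opposite strand. Vsig4 held it at 155 and at 53 bases before the start, and the Clec4f window did not hold these letters. Of the 8 members with a window, 6 held the core (Cd5l, Marco, Vsig4, C1qb, C1qc and Cd68, but not Clec4f or Timd4), against 23.3% of 32851 windows of the same length. Both strands were searched, and a match describes letters and not binding. Distances are from the RefSeq start. The GENCODE M21 start lies inside the window of C1qc (chr4:136893065) and of Clec4f (chr6:83656187). Part of each of these windows is thus within the gene as GENCODE gives it, and distances from that start would differ. Whether promoter letters bear on the pattern of the markers over the livers was not tested.

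None of the 10 markers passed the test between groups. All 10 had counts in every library and enough of them to be tested, and 0 of 10 had an adjusted p under 0.05 in edgeR's quasi-likelihood test with Benjamini-Hochberg adjustment, where 4.5% of the 11092 genes tested were called (2.77% lower and 1.73% higher in TM5614). At an unadjusted p under 0.05 the count was also 0 of 10, against 20.4% of genes tested, and DESeq2 and limma-voom called 0 of 10 as well. The groups overlapped in CPM (counts scaled to library size, with TMM factors) for all 10, while 8.93% of genes tested had groups that did not overlap, 4.87% with TM5614 lower. All 10 estimates lay below 0, as did 48.5% of those of all genes tested, with a median log2 fold change of -0.45 against 0.01 over all genes tested, and every 95% interval held 0. As described below, the markers were high or low together in the same livers, so the 10 signs are not independent. The intervals reached from -1.84 to 0.71 on the log2 scale, so a difference of either sign remained within the error for each gene.

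**Figure D1:**
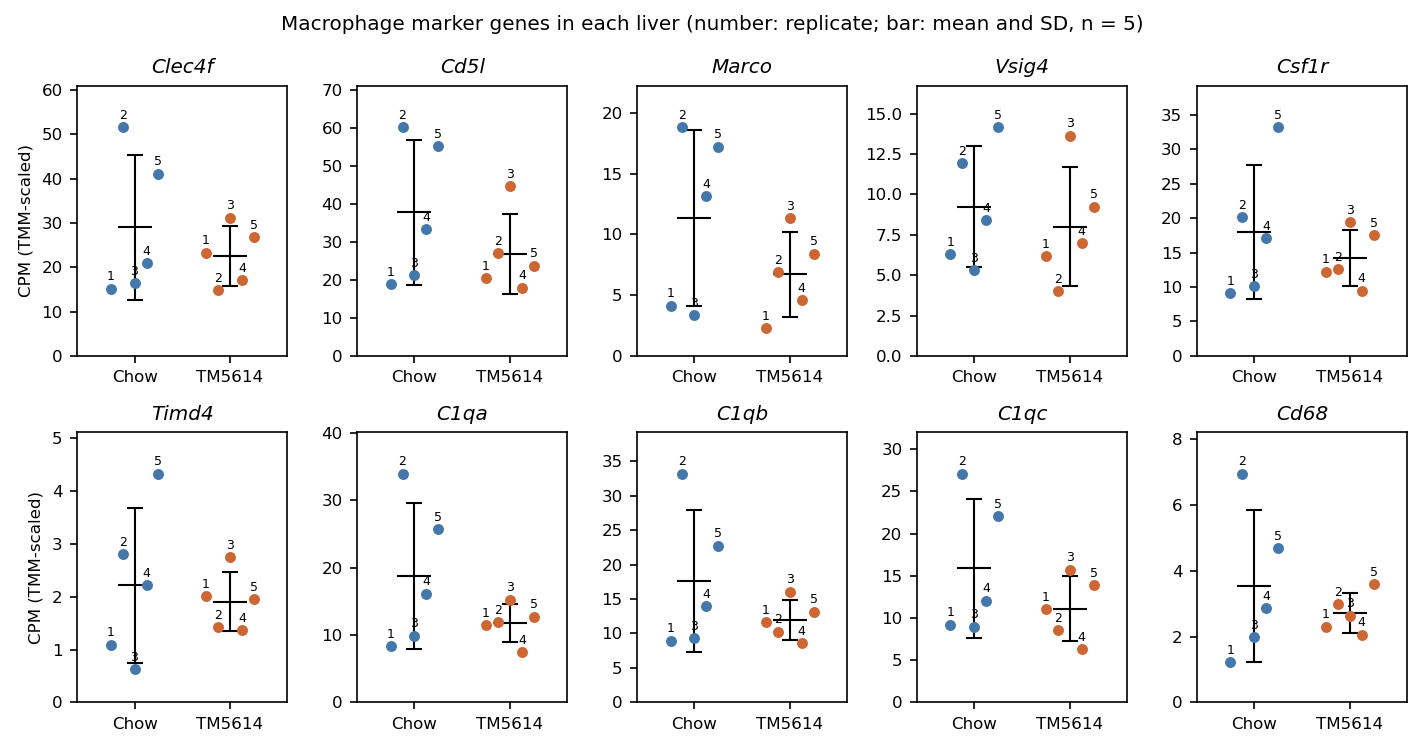
CPM of each marker (y axis, TMM-scaled, from 0) in each of the 5 Chow and 5 TM5614 livers, with the replicate number at each point and the mean and SD as bars. The groups overlap in every panel, and Chow replicates 2 and 5 are the highest points in 9 of the 10 panels.

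Clec4f encodes a C-type lectin found on mouse Kupffer cells and on few other cells. Its level was 15.2, 51.6, 16.4, 20.9 and 41.1 CPM in Chow replicates 1 to 5, and 23.3, 14.8, 31.2, 17.03 and 26.8 CPM in TM5614 replicates 1 to 5. Chow replicates 2 and 5 were high, the lowest value was in TM5614 replicate 2, and 3 of 5 TM5614 livers lay above the Chow median. In edgeR the adjusted p was 0.566 for a log2 fold change of -0.37 (SE 0.35, 95% interval -1.12 to 0.39), with means of 29.0 ± 16.4 and 22.6 ± 6.78 CPM (SD, n = 5 each). The mean was lower in TM5614 while the median was higher, at 23.3 against 20.9 CPM.

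Timd4 encodes a receptor for phosphatidylserine on dying cells and is carried by Kupffer cells of embryonic origin. It was the lowest of the markers, with 6 to 47 counts per library. The Chow livers spanned 0.626 to 4.32 CPM, and the TM5614 livers 1.37 to 2.75 CPM, so all 5 TM5614 livers lay inside the range of Chow. The same held for Csf1r and Cd68, and thus for 3 of 10 markers, against 26.9% of genes tested. The estimate was -0.23 on the log2 scale (SE 0.44, edgeR adjusted p = 0.783).

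Cd5l encodes a secreted protein of the scavenger receptor cysteine-rich family that macrophages make under control of the LXR receptors. Its level was 18.8, 60.2, 21.3, 33.4 and 55.2 CPM in Chow replicates 1 to 5, and 20.5, 27.1, 44.6, 17.9 and 23.7 CPM in TM5614 replicates 1 to 5. The high livers were again Chow 2 and 5, followed by TM5614 replicate 3, and 1 of 5 TM5614 values lay above the Chow median. The estimate was -0.50 on the log2 scale (SE 0.35, 95% interval -1.25 to 0.25; edgeR adjusted p = 0.429).

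Marco and Vsig4 encode receptors for particles in the blood. Marco is a scavenger receptor that binds bacteria, and it varied most of all members within TM5614, from 2.30 (replicate 1) to 11.4 CPM (replicate 3). In Chow it was 4.12, 18.8, 3.34, 13.2 and 17.2 CPM in replicates 1 to 5, and in TM5614 it was 2.30, 6.88, 11.4, 4.57 and 8.42 CPM. No TM5614 liver exceeded the Chow median of 13.2 CPM, but Chow replicates 1 and 3 lay below 4 of the TM5614 livers. Marco had the lowest estimate of the 10, at -0.75 (SE 0.50, 95% interval -1.84 to 0.34; edgeR adjusted p = 0.414).

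Vsig4 encodes a complement receptor that captures C3-coated particles. Its level was 6.31, 11.96, 5.32, 8.40 and 14.2 CPM in Chow replicates 1 to 5, and 6.18, 4.02, 13.7, 6.97 and 9.24 CPM in TM5614 replicates 1 to 5. It was the 1 member whose 2 highest livers were not Chow 2 and 5, since TM5614 replicate 3 came between them. It was also the 1 member with a larger CV in TM5614 (45.7%) than in Chow (40.7%). Its estimate was the nearest to 0, at -0.21 (SE 0.34, 95% interval -0.94 to 0.53; edgeR adjusted p = 0.749).

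Csf1r encodes the receptor for CSF1 and IL-34, on which Kupffer cells depend. Its level was 9.10, 20.2, 10.1, 17.1 and 33.2 CPM in Chow replicates 1 to 5, and 12.2, 12.6, 19.4, 9.48 and 17.5 CPM in TM5614 replicates 1 to 5. Chow replicate 5 stood above all others, and all 5 TM5614 livers lay inside the range of Chow. The estimate was -0.34 (SE 0.33, 95% interval -1.06 to 0.38; edgeR adjusted p = 0.583). Csf1r overlaps a microRNA gene on its own strand and Hmgxb3 on the opposite strand, and whether counting used strand is not stated in the sources used here, so its counts cannot be told apart from those of Hmgxb3 in the shared stretch.

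Cd68 encodes a glycoprotein of late endosomes and lysosomes that macrophages of most tissues carry. It held 10 to 72 counts per library. The Chow livers spanned 1.21 (replicate 1) to 6.945 CPM (replicate 2), and the TM5614 livers 2.06 to 3.59 CPM, again inside the range of Chow. The spread was wider in Chow, with a CV of 65.1% against 22.2%, and the estimate was -0.40 (SE 0.40; edgeR adjusted p = 0.590).

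The C1q genes encode the A, B and C chains, which assemble in equal numbers into C1q. They lie side by side on the minus strand of chromosome 4 (GRCm38, GENCODE M21), with C1qb at chr4:136880129-136886187, C1qc at chr4:136889804-136893065 and C1qa at chr4:136895917-136898803. The 3 genes lie within 18675 bases, and none overlaps another annotated gene. C1qa was 8.37, 33.9, 9.92, 16.2 and 25.7 CPM in Chow replicates 1 to 5, and 11.5, 11.9, 15.3, 7.43 and 12.7 CPM in TM5614 replicates 1 to 5. No TM5614 value passed the Chow median of 16.2 CPM, and the 2 lowest Chow livers lay below 4 of the 5 TM5614 livers. C1qa had the smallest p of the members, at 0.0768 unadjusted and 0.301 adjusted in edgeR, for a log2 fold change of -0.68 (SE 0.35, 95% interval -1.45 to 0.09).

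C1qb was 8.98, 33.2, 9.29, 13.9 and 22.7 CPM in Chow replicates 1 to 5, and 11.6, 10.3, 16.1, 8.57 and 13.1 CPM in TM5614 replicates 1 to 5. C1qc was 9.22, 27.1, 8.98, 12.04 and 22.1 CPM in Chow and 11.1, 8.56, 15.7, 6.28 and 13.9 CPM in TM5614. In both, Chow replicates 2 and 5 were highest and TM5614 replicate 3 came next. The estimates were -0.57 (SE 0.34; edgeR adjusted p = 0.367) for C1qb and -0.52 (SE 0.34; edgeR adjusted p = 0.407) for C1qc. With a GC content and length offset the estimates were -0.27 for C1qa, -0.18 for C1qb and -0.17 for C1qc, and without Chow replicate 2 they were -0.37, -0.22 and -0.25.

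While the level of C1q moved over the livers, the mix of its chains was nearly even in each of them. Of the counts of the 3 genes, C1qa took 35.5% ± 2.50 in Chow and 34.0% ± 2.75 in TM5614 (SD, n = 5 each). C1qb took 33.5% ± 1.13 and 34.6% ± 2.22, and C1qc took 31.1% ± 2.51 and 31.3% ± 3.18. Scaled per length, in FPKM, the shares stayed close, with C1qa at 35.0% and 33.5%. In single livers the shares ran from 27.8% (C1qc in TM5614 replicate 2) to 38.8% (C1qa in the same liver). The 95% Wilson interval of that C1qa share was 32.8% to 45.2%, from 237 C1q counts, and such intervals hold counting error alone, as PCR copies of a molecule were not told apart.

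**Figure D2:**
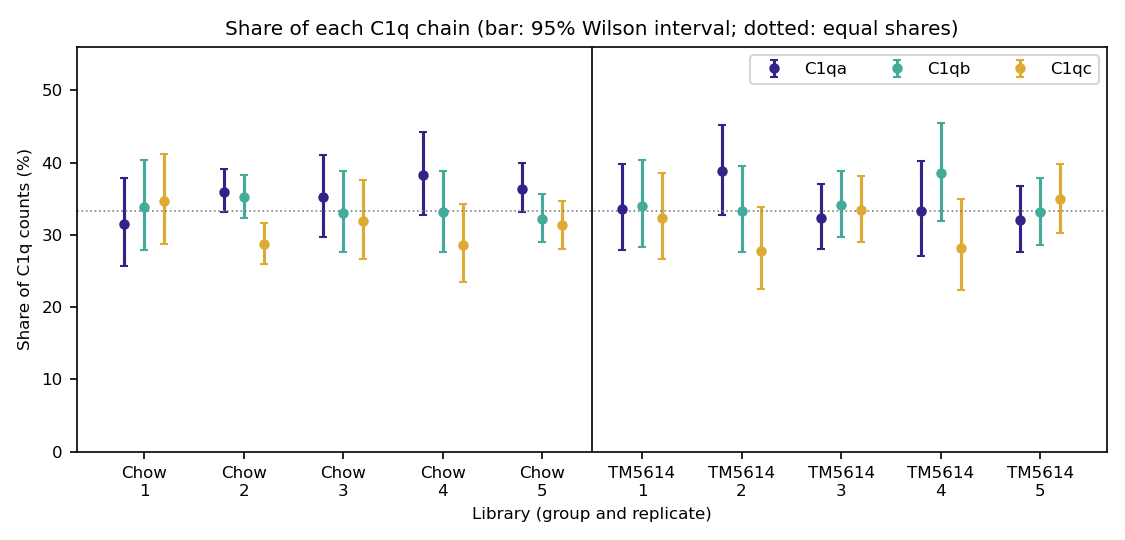
Share of C1qa, C1qb and C1qc in the summed C1q counts of each liver (y axis, %), with 95% Wilson intervals as bars and a dotted line at equal shares. All shares lie between 27.8% and 38.8% in livers whose C1qa level differs from 7.43 to 33.9 CPM.

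Compared per length over all 10 livers, the markers formed a graded order. Cd5l (15.6 ± 7.58 FPKM, SD, n = 10), C1qa (13.9 ± 7.62), C1qb (13.7 ± 7.20), C1qc (12.6 ± 6.15) and Clec4f (10.6 ± 5.07) stood highest. The SDs of neighbours in that order overlapped. Cd5l exceeded C1qa in 7 of 10 livers, C1qa exceeded C1qb in 5, C1qb exceeded C1qc in 8 and C1qc exceeded Clec4f in 9, the last by a median ratio of 1.21. Clec4f exceeded Vsig4 (5.94 ± 2.45 FPKM) in 10 of 10 livers, by a median ratio of 1.73. Vsig4 exceeded Marco (4.48 ± 2.92 FPKM) in 7 of 10 livers, by a median ratio of 1.59. Marco and Csf1r (4.10 ± 1.85 FPKM) exchanged places, with Marco higher in 5 of 10. Csf1r exceeded Cd68 in 9 of 10 livers, by a median ratio of 1.68. Cd68 (2.47 ± 1.30 FPKM) was above Timd4 (0.933 ± 0.479 FPKM) in 10 of 10 livers, by a median ratio of 2.43.

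The markers were high or low together in the same livers. Summed over the 10 genes, the level was 82.3, 266.7, 87.3, 140.2 and 240.4 CPM in Chow replicates 1 to 5, and 103, 100.6, 173, 81.7 and 131 CPM in TM5614 replicates 1 to 5. The range within Chow was 3.24-fold and within TM5614 2.11-fold, and the mean of TM5614 (118 ± 35.3 CPM) was 72.1% of that of Chow (163 ± 85.9 CPM; SD, n = 5 each). In CPM not corrected for GC content and length, Chow replicates 2 and 5 were the 2 highest livers for 9 of the 10 markers. They were so for 2.47% of genes tested, a pattern noticed in these values. Of the gene lists described below, it held for 40% of tested dendritic cell and MHC class II genes and 31.2% of genes of most myeloid cells. It held for 27.3% of sinusoidal endothelial genes and 25% of other Kupffer cell genes, and for 12.5% or less in the remaining lists. Chow replicate 1 was among the 3 lowest livers for 8 markers, Chow replicate 3 for 9 and TM5614 replicate 4 for 7. The SD of log2 CPM was larger in Chow for 9 of 10 markers, and for 77.5% of genes tested.

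**Figure D3:**
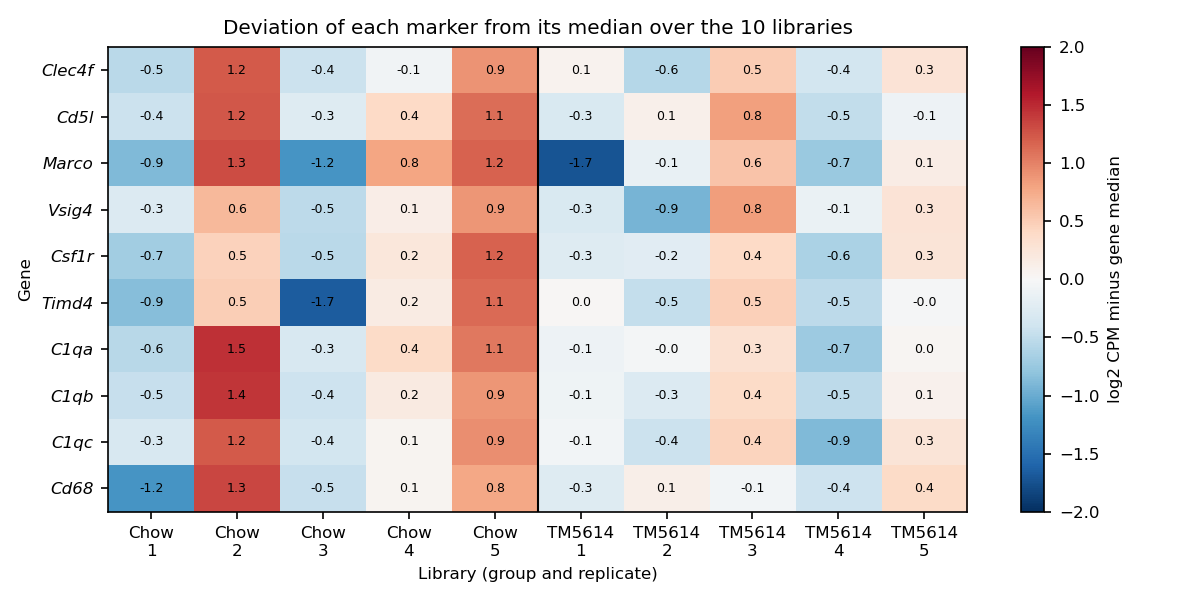
Log2 CPM of each marker (rows) in each liver (columns) minus the median of that gene over the 10 livers, as colour and number, with a line between Chow and TM5614. The columns of Chow replicates 2 and 5 are above the median for every marker, and those of Chow replicates 1 and 3 and TM5614 replicate 4 are below it.

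Chow replicate 2, which carried the highest level of 7 markers, was also the library that stood apart over all genes. Its mean correlation with the other Chow libraries was 0.927, where the remaining 9 libraries had 0.965 to 0.982 within their groups. A trend with GC content and transcript length held 46.05% of its deviations over genes, against 0.763% to 11.5% in the remaining libraries. With that trend taken out, the summed level of the markers was 190.5 CPM in Chow replicate 2, below the 246.5 CPM of Chow replicate 5 and near the 187.5 CPM of TM5614 replicate 3, and the group means were 149 ± 69.4 and 122 ± 41.6 CPM. TM5614 replicate 3 then stood above Chow replicate 2 for C1qa (18.9 against 16.1 CPM), C1qb (19.3 against 16.8) and C1qc (18.8 against 14.1). The same held for Csf1r (20.05 against 18.7 CPM), as it did for Vsig4 before the correction. For Clec4f, Cd5l, Marco, Timd4 and Cd68, Chow replicates 2 and 5 stayed the highest. With the same trend as an offset in the fit, the median log2 fold change of the markers was -0.27, and that of Cd68 was -0.15. The part of RNA quality in the level of this liver was not tested.

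Without Chow replicate 2 the median log2 fold change of the markers was -0.23, with 10 of 10 estimates below 0. Clec4f was then at -0.06 and Cd68 at -0.0055, near 0, and Cd5l (-0.28) and Marco (-0.48) were also nearer to 0 than over all 10 libraries. Without Chow replicate 5 it was -0.30, with 7 of 10 below 0, as Vsig4 (0.01), Csf1r (0.02) and Timd4 (0.18) turned. In limma-voom with sample quality weights, which gave Chow replicate 2 a weight of 0.0822, the median was -0.07 and 6 of 10 estimates lay below 0, with Clec4f (0.10), Vsig4 (0.06), Timd4 (0.36) and Cd68 (0.15) above it. With Chow replicate 2 and TM5614 replicate 2 both left out, it was -0.17, with 8 of 10 below 0. Without Chow replicate 1 it was -0.65, the lowest of all settings. The count of markers past the threshold was 0 in every one of these fits.

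**Figure D4:**
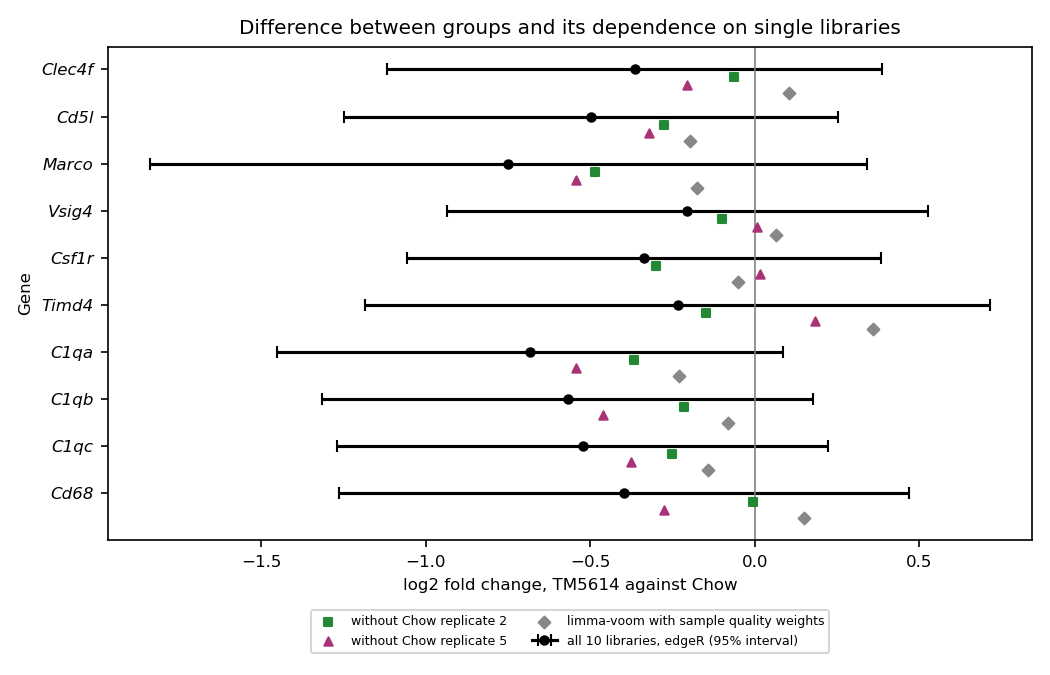
Log2 fold change of TM5614 against Chow (x axis) for each marker, with the 95% interval of edgeR over 10 libraries as black bars and the estimates without Chow replicate 2, without Chow replicate 5 and in limma-voom with sample quality weights as coloured points. All black intervals hold 0, and most coloured points lie nearer to 0 than the black ones.

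The ratios between markers varied within both groups. The ratio of summed C1q to Clec4f in CPM was 1.71 to 2.02 in Chow and 1.31 to 2.08 in TM5614. Cd5l over Clec4f was 1.17 to 1.6 in Chow and 0.883 to 1.83 in TM5614. Marco over Clec4f had the widest range, with 0.204 to 0.629 in Chow and 0.0988 (replicate 1) to 0.465 (replicate 2) in TM5614. For all of these ratios the groups overlapped.

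Other genes that Kupffer cells carry did not pass the test either. Of 17 listed, 16 were tested, 0 passed in either direction, 12 had estimates below 0 and the median log2 fold change was -0.14. The most abundant, Slc40a1, which encodes the iron exporter ferroportin and is used by macrophages that recycle red cells, was 152 ± 33.0 CPM in Chow and 122 ± 16.3 CPM in TM5614 (log2 fold change -0.32, edgeR adjusted p = 0.291). Genes of most myeloid cells gave 0 calls of 16 tested, 12 estimates below 0 and a median of -0.23. Lcp1, the most abundant of them and the gene of an actin-bundling protein of leukocytes, had a log2 fold change of -0.14 (edgeR adjusted p = 0.630). It was lowest in Chow replicate 2, at 62.7 CPM, where the markers were high. Over the 16 tested genes of most myeloid cells, the median of log2 CPM minus the gene median was 0.52 in that liver.

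**Figure D5:**
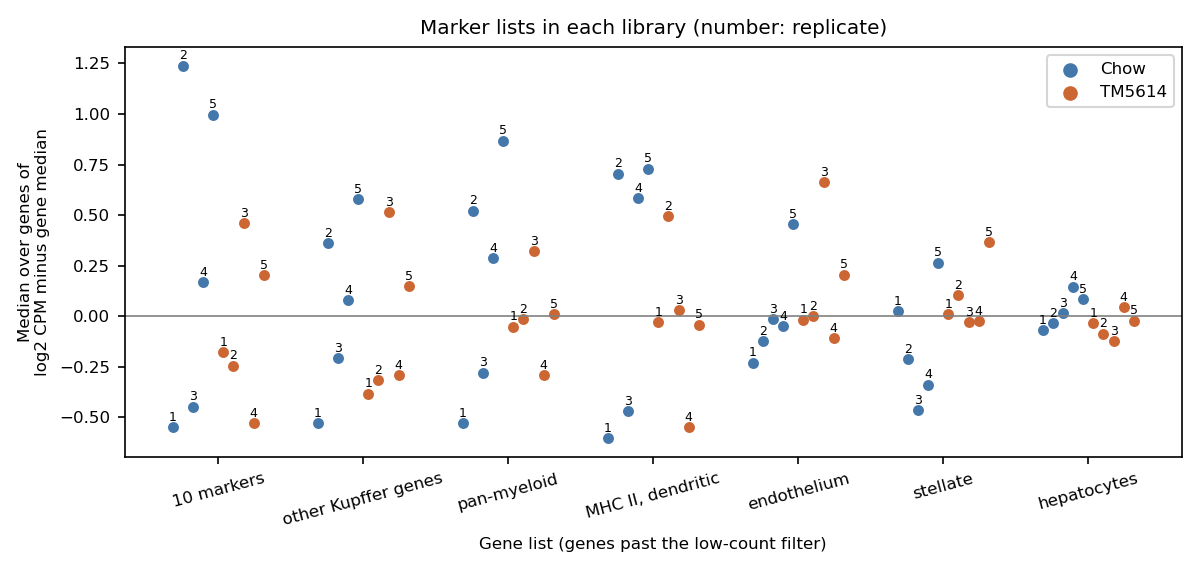
Median over the tested genes of each list of log2 CPM minus the gene median (y axis) in each liver, with the replicate number at each point, for the 10 markers and 6 other lists. The markers run between -0.55 (Chow replicate 1) and 1.24 (Chow replicate 2), a wider range than in the other lists shown.

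Among 9 tested transcription factors of macrophage and Kupffer cell identity, 1 rose and 0 fell, with a median of 0.12. The 1 that rose was Id3, which encodes an inhibitor of DNA binding that Kupffer cells need and that many other cells also express. It was 10.92, 20.3, 15.97, 7.61 and 7.82 CPM in Chow replicates 1 to 5, and 42.9, 64.7, 28.8, 32.3 and 12.9 CPM in TM5614 replicates 1 to 5. TM5614 replicate 5 overlapped Chow, and Id3 rose by 1.52 on the log2 scale (SE 0.39, edgeR adjusted p = 0.0478). This call was lost in 8 of the 10 fits that left out 1 library, all but those without Chow replicate 2 or TM5614 replicate 5, with adjusted p up to 0.113. Spic and Tfec had too few counts to be tested.

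The ligands on which liver macrophages depend did not pass in either direction. Of 9 listed, 8 were tested, with a median log2 fold change of 0.03, and Csf2 was at 0 counts in all 10 libraries. Gdf2, the gene of BMP9 and the most abundant of these, was 14.7 ± 5.19 CPM in Chow and 15.5 ± 3.75 CPM in TM5614 (log2 fold change 0.07, edgeR adjusted p = 0.894). Receptors and bridging proteins for scavenging and uptake of dying cells gave 0 calls of 10, with a median of 0.11, and the most abundant of them, Lrp1, a large endocytic receptor, had -0.23 (edgeR adjusted p = 0.388). Lysosomal genes gave 0 calls of 10 with a median of -0.10, and Ctsl, the gene of the protease cathepsin L, had 0.14 (edgeR adjusted p = 0.634).

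The partners of C1q in the classical complement pathway are made mostly by hepatocytes. Of 12 tested, 1 fell and 0 rose, with a median log2 fold change of -0.16. C4b, the gene of complement C4, was 933.5, 1043, 1218, 1137 and 1151 CPM in Chow replicates 1 to 5, and 874, 661, 900, 749 and 735 CPM in TM5614 replicates 1 to 5. All 5 TM5614 livers lay below all 5 Chow livers, and C4b fell by 0.48 on the log2 scale (SE 0.12, edgeR adjusted p = 0.0387). The call was lost in 8 of the 10 fits that left out 1 library, all but those without Chow replicate 1 or 2, with adjusted p up to 0.111. Groups that did not overlap were also seen for C1ra (log2 fold change -0.23, edgeR adjusted p = 0.217) and C1rl (-0.34, edgeR adjusted p = 0.217). C3, the central and most abundant component, had -0.36 (SE 0.12, edgeR adjusted p = 0.123).

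LXR receptors drive Cd5l in macrophages and lipid genes in hepatocytes. Of 10 LXR target genes tested, 2 fell and 0 rose, with a median of -0.31. Srebf1, the gene of the lipogenic factor SREBP-1, fell by 1.84 on the log2 scale (SE 0.19; edgeR adjusted p = 0.000402), and Scd1, the gene of a fatty acid desaturase, fell by 1.19 (SE 0.24, edgeR adjusted p = 0.0162, and 0.0561 without TM5614 replicate 3). Chow replicate 2, the highest liver for Cd5l, had the highest Srebf1 (144.6 CPM) and Apoe (38800 CPM) of its group. These levels were not corrected for the GC content and length trend, which held 46.05% of the deviations of that library. Its Scd1, at 4275 CPM, was within the range of the group. Chow replicate 5, the next highest for Cd5l, was at 92.0 CPM for Srebf1, within the range of its group. It was the lowest of its group for Scd1 (3748 CPM) and Apoe (17330 CPM). Whether Cd5l followed LXR activity was not tested. Apoe, the most abundant target, had a log2 fold change of -0.30 (edgeR adjusted p = 0.457).

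Most mediators of activated macrophages were too low to be tested. Of 12 listed, 2 were tested, and Tnf, Il1b, Il6, Il10, Ccl2, Ccl3, Ccl4, Ccl5, Cxcl2 and Nos2 did not pass the filter. Il18, the gene of a cytokine that Kupffer cells and other cells hold as a precursor, was 9.66 to 12.6 CPM in Chow and 6.47 to 9.48 CPM in TM5614. These groups did not overlap, and Il18 fell by 0.59 on the log2 scale (SE 0.14, edgeR adjusted p = 0.0386). The call was lost without Chow replicate 1, 3 or 4 and without TM5614 replicate 2, 3, 4 or 5, with adjusted p up to 0.103. Cxcl10, the other mediator tested and the gene of an interferon-induced chemokine, was 0.868 to 2.38 CPM in Chow and 2.52 to 3.59 CPM in TM5614 (log2 fold change 0.90, SE 0.26; edgeR adjusted p = 0.0823).

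Markers of other leukocytes and liver cells gave no calls. Recruited monocytes gave 3 tested of 8 with 0 calls, and their most abundant gene, Plac8, was 2.57 ± 1.16 and 2.22 ± 0.453 CPM. Lipid-associated macrophages gave 4 tested of 6 with 0 calls and a median of 0.44. The most abundant of them was Lpl (log2 fold change 0.59, edgeR adjusted p = 0.592). Lpl was 115 CPM in TM5614 replicate 2, the library with the skeletal muscle transcripts described below. It was 18.1 to 25 CPM in the other TM5614 livers. Neutrophil and lymphocyte genes had too few counts to be tested, with summed levels of 0.940 to 2.70 CPM in Chow and 0.800 to 3.44 CPM in TM5614 for neutrophils, led by Csf3r with 2 to 12 counts per library. The lymphocyte sums were 3.44 to 8.49 CPM and 2.87 to 7.80 CPM, and Cd79b, the most abundant of them, was 1.05 ± 0.467 and 1.03 ± 0.540 CPM. Dendritic cell and MHC class II genes gave 5 tested of 9 with 0 calls and a median of -0.34, and Cd74, the invariant chain, was highest in Chow replicates 2 (59.2 CPM) and 5 (51.1 CPM), as the markers were.

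Sinusoidal endothelium gave 0 calls of 11, with a median of 0.14, and its summed level was 170 to 280 CPM in Chow and 178 to 290 CPM in TM5614. Its highest sums were in TM5614 replicate 3 (290 CPM) and Chow replicate 5 (280 CPM), both high in the markers, while Chow replicate 2 was at 221 CPM. Ptprb, its most abundant gene, had a log2 fold change of 0.14 (edgeR adjusted p = 0.659). Stellate cells and fibroblasts gave 0 calls of 9 with a median of 0.20, and Dcn, the gene of decorin, had 0.42 (edgeR adjusted p = 0.185). Cholangiocytes gave 0 calls of 2 with a median of 0.22 (Sox9 0.27, edgeR adjusted p = 0.594). Hepatocyte genes gave 0 calls of 8 with a median of -0.06, and Alb, the gene of albumin, had -0.15 (edgeR adjusted p = 0.444).

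Of 6 erythroid genes 1 was tested, Alas2, with a log2 fold change of -0.36 (edgeR adjusted p = 0.367), and the haemoglobin genes Hba-a1, Hba-a2, Hbb-bs and Hbb-bt were listed at 0 in all libraries, so red cells in the tissue cannot be read from them. Skeletal muscle genes summed to 3737 CPM in TM5614 replicate 2, with Acta1, the gene of skeletal actin, at 1211 CPM, and to 65.4 CPM or less elsewhere. In that library the markers summed to 100.6 CPM, inside the range of its group, and leaving it out gave a median log2 fold change of -0.45. Single markers moved more. Clec4f and Vsig4, both lowest in that library, went from -0.366 to -0.255 and from -0.205 to -0.044. Csf1r, Timd4, C1qb and C1qc were also nearer to 0, and Cd5l, Marco, C1qa and Cd68 were further from it.

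The genes most like the markers over the livers were sought by their log2 CPM, centred within each group and divided by its SD, as the mean absolute difference from the mean profile of the markers over 10 libraries. This log2 CPM was not corrected for the GC content and length trend. The profile was highest in Chow replicate 2 (1.31), where that trend was strongest, and in Chow replicate 5 (1.19). The part of the trend in the likeness was not tested. Of 8590 other genes with at least 50 mean counts, the nearest were Gpr182 (0.168), Laptm5 (0.222), Cfp (0.231), Cdk5rap1 (0.259), Lgmn (0.281), Sdc3 (0.302), Slfn5 (0.303) and Lyz2 (0.305), where the median gene was at 1.09. The markers themselves lay at 0.171 (C1qb) to 0.404 (Vsig4) from the profile they define. Gpr182 is a chemokine-binding receptor of sinusoidal endothelium, and Laptm5, Cfp, which encodes properdin, and Lyz2, which encodes lysozyme, are genes of myeloid cells. None of the 8 passed the test, with log2 fold changes from -0.61 (Laptm5, edgeR adjusted p = 0.354) to 0.26 (Lyz2, edgeR adjusted p = 0.654). Gpr182 had -0.06 (SE 0.24; edgeR adjusted p = 0.900), so the gene nearest in pattern within the groups had a smaller estimate between them than any marker.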

How the data were processed

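Livers of 5 Chow and 5 TM5614 mice were sequenced, with the group and replicate of each given by its title. Per the labels, RNA was taken from frozen liver and made into poly(A) libraries, while the study's methods name RNAlater for the portion used for RNA. The labels' strain name and age (21 weeks) are used, and the study's text gives the C57BL/6 J substrain and an age slightly lower. Reads were 75 bp single ends, aligned with STAR to mm10 and counted per gene. HOMER and DESeq2 are named in the submitters' processing notes. Tool versions, the annotation and the strand setting are not given in the sources used here. The authors deposited raw counts per gene symbol, with 6398335 to 10874955 per library, and FPKM values, which for each gene stood in 1 fixed ratio to the counts after a factor per library. The FPKM values served to compare levels between genes. The regularised log2 values and the table of the authors' own comparison (log2 fold changes, p-values) were not used.

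Genes were kept with filterByExpr (11092 of 24421; 17291 had a count), scaled with TMM and tested with edgeR 4.0.16 (two-sided glmQLFTest after glmQLFit, without a block; R 4.3.3). Adjusted p-values are Benjamini-Hochberg values over all tested genes, with 0.05 as threshold. The SE was taken as the size of the fold change on the log2 scale divided by the root of F, and log2 CPM for patterns had a prior count of 2. The study used DESeq2, so version 1.42.0 was run here as an alternative. The other alternatives were limma-voom (3.58.1) with sample quality weights, robust dispersion, scaling by RLE, by upper quartile or by totals only, dropping the filter or asking for at least 10 counts in each library, a block on replicate number, a GC content and length offset (spline with 5 degrees of freedom, 96.7% of tested genes), that offset together with the block, and each library left out in turn. Leaving out Chow replicate 2 and TM5614 replicate 2 together was chosen after seeing the data. All tests were run first on simulated counts.

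The 10 members and all gene lists were chosen with earlier results of these data known, so lists are given as counts and medians without a test of their own. Named were all members, the genes of each list past the threshold and its most abundant gene, the 8 genes nearest in pattern, and genes that a count of 5 or fewer rests on. Of these, 1 gene is not reported here. Coordinates are from GENCODE M21 on GRCm38, the assembly behind mm10. Promoters were matched by symbol in a RefSeq table of GRCm38.p6, which held 8 of the 10 members. No pair of libraries within a group had a chi-square per degree of freedom under 8.00 over genes, so each was counted as 1 sample. Mouse numbers differ between all samples, and p-values measure the spread between these mice. Counts were lowest for Timd4 and Cd68. Precision did not follow the counts alone, as the SE was largest for Marco (0.50, against 0.44 for Timd4 and 0.40 for Cd68).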

Additional observations from a re-analysis of the deposited data

Results flagged for a closer look

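Of 132 sets of 5 libraries examined, 15 held a library whose gap to its nearest neighbour was a large share of the range of its group, where chance gives about 6.6. The 15 were not separate events, since a summed list holds its most abundant gene. This applies to Apoe in the LXR targets, Lrp1 in the scavenger and uptake genes and Acta1 in the muscle genes. The count of 15 thus cannot be weighed against chance. No marker's own CPM was among the 15. Within the C1q chains, C1qa took 38.82% of C1q counts in TM5614 replicate 2 (32.0% to 33.6% in the other TM5614 livers), and C1qb took 38.46% in TM5614 replicate 4 (33.1% to 34.1%).

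In Chow replicate 2, Lcp1 was 62.7 CPM (105.6 to 114 in the other Chow livers), Apoe was 38800 CPM (17330 to 20510), the summed LXR targets were 43680 CPM (21750 to 28000) and Acta1 was 0.0965 CPM, which is 1 count, against 0 in the others. In Chow replicate 4, Ctsl was 1545 CPM (875 to 956).

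In TM5614 replicate 2, Acta1 was 1211 CPM (0 to 22.3 in the other TM5614 livers), the summed skeletal muscle genes were 3737 CPM (1.29 to 65.4) and Lpl was 115 CPM (18.1 to 25). In TM5614 replicate 1, Lrp1 was 821 CPM (531 to 613) and the summed scavenger and uptake genes were 1368 CPM (1093 to 1166). In TM5614 replicate 3, Csf3r was 1.03 CPM (0.260 to 0.457) and Cdk5rap1 was 9.63 CPM (7.08 to 7.75). In TM5614 replicate 5, the summed stellate genes were 475 CPM (364 to 395). The causes were not tested.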

How the results depend on the processing

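The count of markers past the threshold was 0 under all 22 alternatives, and the lowest adjusted p of a marker was 0.160, for C1qa without Chow replicate 1. Of 219 single-marker results, 210 kept the direction and 9 turned: Clec4f 0.104, Vsig4 0.0632, Timd4 0.359 and Cd68 0.150 in limma-voom with sample quality weights, Vsig4 0.00657, Csf1r 0.0152 and Timd4 0.182 without Chow replicate 5, and Clec4f 0.0531 and Vsig4 0.0666 with Chow 2 and TM5614 2 left out together. With 1 library left out these ran from -0.481 to 0.00657 for Vsig4, -0.512 to 0.0152 for Csf1r and -0.475 to 0.182 for Timd4, and the median log2 fold change of the markers ran from -0.65 to -0.23. The genes called over all tested (499) were 908 in DESeq2, 1386 in limma-voom, 771 with the replicate block and the GC content and length offset together and 1230 with Chow 2 and TM5614 2 left out. With 1 library left out they ran from 235 to 1031, at 1031 without Chow 2, 293 without Chow 3, and 331, 235 and 259 without TM5614 1, 3 and 4. The causes were not tested. The median of the markers was -0.27 with the GC content and length offset, -0.21 with that offset and the replicate block, and -0.34 with the replicate block alone, where 555 genes were called. Deviations of same-numbered libraries correlated at 0.0316 to 0.318, not all above 0.1, and 1 of 5 numbers correlated best with itself, so the numbers were not taken to pair the mice. Outside the markers, Srebf1 passed under 22 of 22 alternatives, Scd1 under 21, Il18 under 14, and Id3 and C4b under 11 each, with no change of direction. Timd4 could not be fitted with at least 10 counts in every library. Depth limits Timd4 and Cd68 most.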
